A study of Mus musculus with 6 samples.

Results

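The genes described here are 10 members of the nuclear factor kappa B (NF-kB) system: the subunit genes Rela, Nfkb1, Rel, Relb and Nfkb2, the inhibitor genes Nfkbia, Nfkbib, Nfkbie and Nfkbiz, and Tnfaip3, which encodes the feedback protein A20. They were taken by symbol from a table of raw counts for 55291 gene names, and all 10 were present and passed the filter on low counts. The libraries came from natural killer (NK) cells of the spleen, from mice under steady state conditions, with 1 mouse per library. In 3 mice (S303/7A 5, 6 and 7) the serines at positions 303 and 307 of heat shock factor 1 (HSF1), the transcription factor of the heat shock response, were replaced by alanine, and 3 mice (WT 1, 2 and 3) were wild type for HSF1. No other allele, no treatment and no age is given in the labels. Cells were enriched with DX5 beads and sorted as CD49b+, CD3e-, and the comparison asks how NK cells of the HSF1 mutant differ from those of wild-type mice at rest.

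In resting cells, inhibitors of the IkB family hold NF-kB dimers in the cytoplasm. Signals from cytokine, Toll-like and TNF family receptors activate the IKK kinase complex, which marks IkB proteins for degradation, so that the dimers enter the nucleus and switch on genes of inflammation and survival. Several of the induced genes, among them Nfkbia and Tnfaip3, encode proteins that shut the pathway off again, and in NK cells the pathway takes part in cytokine production and survival.

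Total counts were 43189163 to 47248039 in the S303/7A libraries and 53845572 to 72736406 in the WT libraries, so depth went with genotype. The sort was checked on Ncr1, an NK cell receptor gene, which was at 2244 to 2530.4 CPM (counts scaled to a common library size with TMM factors) in S303/7A and 2140 to 2226 CPM in WT. Ncr1 thus lay above every WT library in every S303/7A library, as did 7.64% of all genes. Cd3e, a T cell gene whose product the sort selected against, was at 11.4 to 14.8 CPM in S303/7A and 5.50 to 12.6 CPM in WT. Hsf1 itself was found at 67.0, 42.2 and 76.9 CPM in S303/7A, against 83.2, 104 and 108 CPM in WT (log2 fold -0.67 ± 0.22, SE, edgeR adjusted p 0.386). A change of codons does not have to alter the transcript level, so this does not check the labels. Counts of the 10 genes ranged from 1715 to 26519 per library, where counting error alone gives an exact 95% Poisson interval from 4.68% below to 4.85% above the smallest count.

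Of the 10 genes, none reached an adjusted p under 0.05 by the quasi-likelihood (QL) test of edgeR, which is used throughout, against 0.364% of 16480 genes tested. DESeq2 called 1 of the 10, against 0.934% of all genes called higher and 1.72% called lower by DESeq2. By limma-voom 0 of the 10 were called, against 0.0971% of all genes called higher and 0.133% called lower. At an unadjusted p under 0.05 there was 1 of the 10, Tnfaip3, against 9.68% of all genes tested. Tnfaip3 and Nfkb1 were below every WT library in every S303/7A library, 2 of 10 genes, against 8.37% of all genes. Log2 folds (S303/7A over WT) were below 0 for 8 of the 10, against 48.3% of all genes, and their median was -0.17, against 0.0088 over all genes. Since the mice of 1 group also differed from each other together, the genes are not independent of one another.

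**Figure D1:**
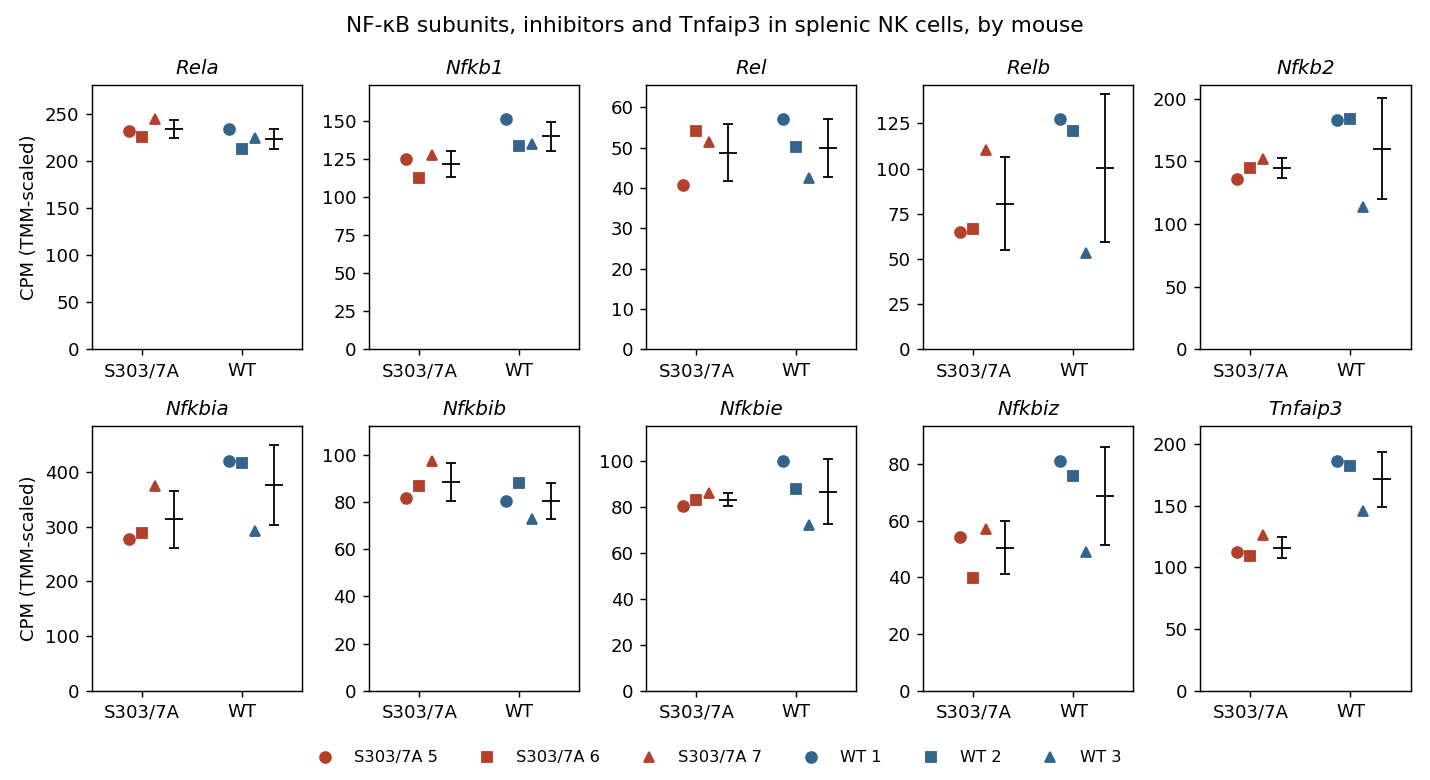
Level of each gene in each mouse, in CPM scaled with TMM factors, with S303/7A mice on the left and WT mice on the right of each panel; black marks are the mean and SD of 3 mice. Tnfaip3 and Nfkb1 show no overlap between genotypes, while WT 3 lies well below WT 1 and WT 2 for Relb, Nfkb2, Nfkbia and Nfkbiz.

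Tnfaip3 (chromosome 10, 19000910 to 19015657, minus strand, GRCm38) encodes A20, a ubiquitin-editing enzyme that ends signalling from TNF and Toll-like receptors to IKK. It was measured at 113, 109 and 126 CPM in S303/7A 5, 6 and 7, against 187, 182 and 146 CPM in WT 1, 2 and 3. The highest S303/7A mouse lay below the lowest WT mouse. Means were 116 ± 8.85 CPM in S303/7A and 171 ± 22.3 CPM in WT (SD, n = 3 each), a fold of 0.677 with a 95% interval from 0.564 to 0.813. Its log2 fold was -0.56 ± 0.11 (SE), the farthest from 0 of the 10 genes. The unadjusted p of 0.00140 was the 168th smallest of all genes, and edgeR gave an adjusted p of 0.136. DESeq2 called Tnfaip3 lower (adjusted p 0.00121), as did edgeR without the low-count filter (adjusted p 0.0379), and over all 12 alternatives the adjusted p ranged from 0.00121 to 0.471. DESeq2 called 1.72% of all genes lower, and edgeR without the filter 0.343%. In the 6 fits that left out 1 library each, the log2 fold stayed between -0.67 and -0.50, and the adjusted p lay between 0.0851 (without WT 3) and 0.471 (without WT 2).

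Beside Tnfaip3, the summed levels of 5 marker lists of other cells that can enter a CD49b+ sort did not overlap between the genotypes, although in 3 of these lists most single genes did overlap. In these bulk libraries fewer cells of a type and less RNA per cell cannot be told apart. Summed CPM of the basophil markers, 13 of 13 tested, was 475 to 604 in S303/7A and 758 to 1393 in WT, with 13 folds below 0, against 48.3% of all genes, and 1 gene called lower (Ms4a2), against 0.231% of all genes. For the platelet markers, 13 of 14 tested, it was 214.5 to 285 in S303/7A and 415 to 452 in WT, again with 13 folds below 0 and 1 gene called lower (Vwf). Dendritic cell markers, 7 of 9 tested, summed to 306 to 499 CPM in S303/7A and 579 to 771 CPM in WT, with 4 folds below 0, 3 above 0 and overlap of the genotypes for 5 of the 7 genes. Monocyte and macrophage markers, 10 of 12 tested, summed to 807 to 889.7 CPM in S303/7A and 908 to 947 CPM in WT, with 7 folds below 0, 3 above 0 and overlap for 8 of the 10 genes. The neutrophil sums, with 5 of 10 markers tested, were 29.4 to 39.0 CPM in S303/7A and 50.3 to 86.2 CPM in WT, with 3 folds below 0, 2 above 0 and overlap for 4 of the 5 genes. The sums of the NK, T cell, B cell, plasma cell, erythroid, innate lymphoid and stromal lists overlapped between the genotypes. Of the 14 NK genes tested 1 was called lower (Klrb1c, log2 fold -0.54). In the stromal list, 5 of 9 tested, 5 folds were below 0, with a median log2 fold of -1.38 and overlap for all 5 genes. No marker in the 5 lists with separate sums was at 0 counts over all libraries, and the part of these cells in the level of Tnfaip3 or of any other of the 10 genes was not tested.

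The inhibitor Nfkbia (chromosome 12, 55489410 to 55492647, minus strand), which encodes IkB-alpha, the inhibitor resynthesised after each round of NF-kB activation, was measured at 278, 287 and 374 CPM in S303/7A 5, 6 and 7, against 420.4, 416 and 292 CPM in WT 1, 2 and 3. WT 3 lay with S303/7A 5 and 6, and S303/7A 7 lay between the remaining WT mice and these, so the groups overlapped. Means were 313 ± 52.8 CPM in S303/7A and 376 ± 72.7 CPM in WT (SD, n = 3 each), with a log2 fold of -0.27 ± 0.17 (SE, edgeR adjusted p 0.715).

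Nfkbiz (chromosome 16, 55811375 to 55838899, minus strand) encodes IkB-zeta, a nuclear member of the inhibitor family that acts with NF-kB at a subset of genes. It was found at 54.3, 39.8 and 57.1 CPM in mice S303/7A 5, 6 and 7, against 81.1, 75.8 and 48.9 CPM in WT 1, 2 and 3. S303/7A 6 was the lowest mouse, and WT 3 lay inside the S303/7A range. The log2 fold was -0.45 ± 0.22 (SE, edgeR adjusted p 0.591). Its 95% interval, from -0.96 to 0.07, was among the wider ones.

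Nfkbib and Nfkbie encode IkB-beta and IkB-epsilon, cytoplasmic inhibitors with slower turnover or later feedback than IkB-alpha. Nfkbib (chromosome 7, 28758251 to 28767512, minus strand) was found at 81.8, 86.8 and 97.6 CPM in mice S303/7A 5, 6 and 7, against 80.6, 88.0 and 72.8 CPM in WT 1, 2 and 3, with a log2 fold of 0.14 ± 0.10 (SE). It overlaps Sirt2, which had 36558 counts over all libraries, by 778 bases on the opposite strand, and since the strand setting of the counting is not given, reads of that stretch are uncertain. Nfkbie (chromosome 17, 45555703 to 45563169, plus strand) was at 80.4, 83.1 and 86.0 CPM in S303/7A, against 100.05, 87.7 and 71.9 CPM in WT. The S303/7A mice lay inside the range of the WT mice, with an SD of 2.80 CPM in S303/7A and 14.1 CPM in WT, and the log2 fold was -0.06 ± 0.12 (SE). The adjusted p in edgeR was 0.761 for Nfkbib and 0.943 for Nfkbie.

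**Figure D2:**
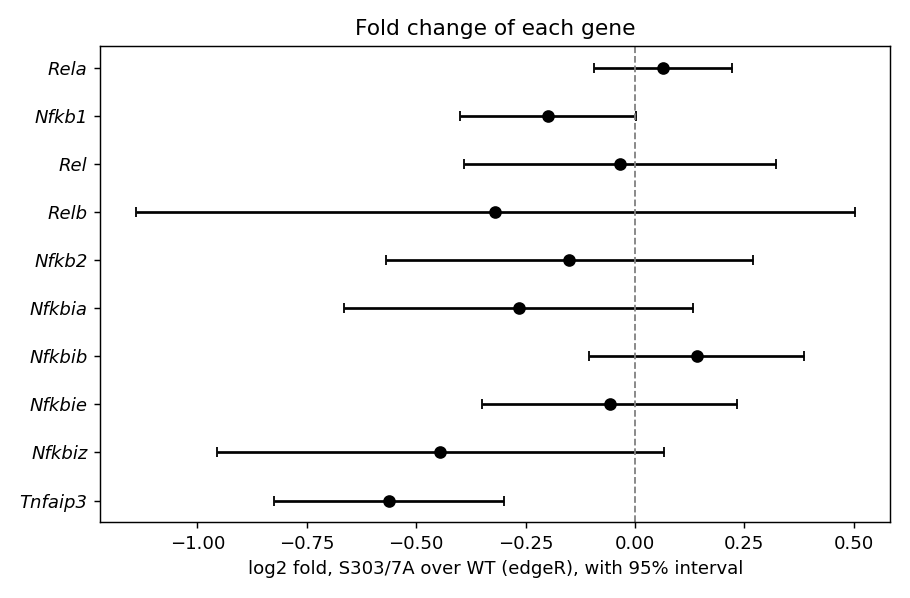
Log2 fold of S303/7A over WT for each of the 10 genes from edgeR, with its 95% interval, not adjusted for the number of genes; the dashed line marks no difference. The interval of Tnfaip3, from -0.83 to -0.30, is the one that does not reach 0.

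Among the subunits of the classical pathway, Rela (chromosome 19, 5637483 to 5648130, plus strand) encodes p65, which carries the activation domain of the common dimer. It was found at 232, 225 and 245 CPM in mice S303/7A 5, 6 and 7, against 234, 213 and 225 CPM in WT 1, 2 and 3. This was the narrowest spread of the 10 genes, 0.20 log2 units between the highest and the lowest library. The log2 fold was 0.06 ± 0.07 (SE), and the 95% interval of the fold ran from 0.938 to 1.17 (edgeR adjusted p 0.850).

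Nfkb1 (chromosome 3, 135584655 to 135691547, minus strand) encodes p105, the precursor of the p50 partner of p65. It was measured at 126, 112 and 128 CPM in S303/7A 5, 6 and 7, against 151, 134 and 135 CPM in WT 1, 2 and 3. The genotypes did not overlap, but S303/7A 7 and WT 2 lay close together. Means were 122 ± 8.43 CPM in S303/7A and 140.0 ± 9.74 CPM in WT (SD, n = 3 each), and the log2 fold of -0.20 ± 0.09 (SE) had an edgeR adjusted p of 0.520. The gene model Gm43430 lies on the same strand inside Nfkb1 and had 1152 counts over all libraries. Rel (chromosome 11, 23736847 to 23770970, minus strand) encodes c-Rel, a subunit prominent in lymphocytes, and was at 40.7, 54.1 and 51.3 CPM in S303/7A, against 57.0, 50.2 and 42.5 CPM in WT. Its groups overlapped over nearly their whole range, with a log2 fold of -0.03 ± 0.15 (SE) that changed sign without S303/7A 5 or without WT 1.

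Relb and Nfkb2 encode the dimer of the alternative pathway, RelB and p100, and p100 is processed to p52 after signals from receptors such as the lymphotoxin beta receptor. Relb (chromosome 7, 19606217 to 19629438, minus strand) varied most of the 10 genes, by 1.25 log2 units between its highest and lowest library. It was found at 64.8, 66.5 and 110.2 CPM in mice S303/7A 5, 6 and 7, against 127, 121 and 53.3 CPM in WT 1, 2 and 3. The lowest of all was a WT mouse, and S303/7A 7 lay near WT 1 and 2. Within a genotype the highest mouse was 1.70 times the lowest in S303/7A and 2.39 times the lowest in WT, so that the difference in means, 80.5 ± 25.7 CPM in S303/7A and 100.4 ± 40.9 CPM in WT (SD, n = 3 each), was smaller than the spread between mice. Its log2 fold was -0.32 ± 0.35 (SE, edgeR adjusted p 0.863).

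Nfkb2 (chromosome 19, 46304320 to 46312385, plus strand) was found at 136, 145 and 152 CPM in mice S303/7A 5, 6 and 7, against 183, 183 and 114 CPM in WT 1, 2 and 3. WT 3 was the lowest mouse and the other WT mice the highest, with all S303/7A mice between. The log2 fold was -0.15 ± 0.18 (SE, edgeR adjusted p 0.878). Psd overlaps Nfkb2 by 299 bases on the opposite strand and had 2743 counts over all libraries.

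The mice of a genotype differed from each other in the same order for many of these genes. WT 1 was the highest WT mouse for 8 of 10 genes and WT 3 the lowest WT mouse for 8 of 10. S303/7A 7 was the highest S303/7A mouse for 9 of 10, all but Rel. Taking each gene relative to its mean over the 6 libraries, the median over the 10 genes was -0.12, -0.14 and 0.05 log2 units in S303/7A 5, 6 and 7, against 0.27, 0.18 and -0.21 in WT 1, 2 and 3. B cell markers, all 10 of 10 tested and none at 0 counts, summed to 42.6, 43.7 and 92.9 CPM in S303/7A 5, 6 and 7, against 46.8, 110.2 and 21.3 CPM in WT 1, 2 and 3. The 3 libraries with the highest Relb were also the 3 with the highest B cell sum. However, WT 1, the highest in Relb, had a B cell sum close to those of S303/7A 5 and 6. No other marker list was set beside Relb here, and the part of B cells in Relb was not tested.

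**Figure D3:**
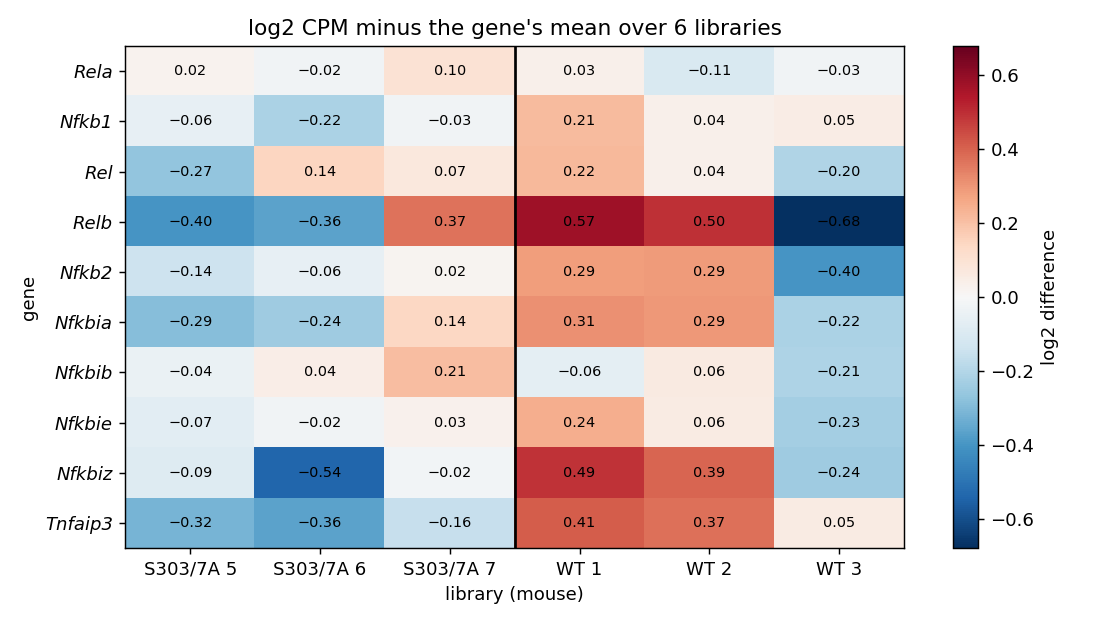
Log2 CPM of each gene minus its own mean over the 6 libraries, with the S303/7A libraries left of the line and the WT libraries right of it. WT 1 and WT 2 are above the mean for Relb, Nfkb2, Nfkbia, Nfkbiz and Tnfaip3, and WT 3 is the lowest library for Relb, Nfkb2, Nfkbib and Nfkbie.

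Levels of different genes were compared per kilobase of their GENCODE exons, merged over all annotated transcripts of a gene. This length was 12.061 kb over 10 transcripts for Nfkb1 and 7.466 kb over 1 transcript for Rel. It can exceed the length of the transcripts present in these cells, so the order of levels, and the low place of Nfkb1, depend on the annotation. Nfkbia had the highest level, 194 ± 32.8 CPM per kb in S303/7A and 234 ± 45.2 CPM per kb in WT (SD, n = 3 each), followed by Rela at 76.2 ± 3.16 and 72.8 ± 3.49 CPM per kb in S303/7A and WT. No library of Nfkbia was as low as any of Rela, and no library of Rela as low as any of the other 8 genes. Next in both genotypes came Nfkbib (33.6 to 45.0 CPM per kb over all 6 libraries), Nfkb2 (24.9 to 40.03), Nfkbie (23.6 to 32.9), Relb (13.7 to 32.7) and Tnfaip3 (15.1 to 25.8), each overlapping its neighbour in the order. Nfkbiz (7.93 to 16.2) and Nfkb1 (9.32 to 12.5) swapped places between the genotypes, and Rel was lowest at 5.45 to 7.63 CPM per kb, below every library of Nfkb1. Set against Rela in the same library, the level per kb of Tnfaip3 was 0.207, 0.206 and 0.219 of Rela in S303/7A 5, 6 and 7, against 0.339, 0.364 and 0.276 in WT 1, 2 and 3, without overlap. For Nfkb1 this ratio was 0.138, 0.127 and 0.134 in S303/7A, against 0.165, 0.160 and 0.153 in WT, also without overlap. For Nfkbia it was 2.28, 2.43 and 2.92 in S303/7A, against 3.43, 3.73 and 2.48 in WT, with overlap. The ratios of Relb, Rel and Nfkb2 to Rela overlapped as well. Tnfaip3 and Nfkb1 were already without overlap in CPM, and Rela had the narrowest spread of the 10 genes, so their ratios are not a separate result.

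RefSeq promoters (GRCm38.p6) were available for 7 of the 10 genes, namely Nfkb2, Nfkbia, Nfkbib, Nfkbie, Rel, Rela and Tnfaip3, and were searched on both strands over the 250 bases before the start for the kappa B consensus, the DNA motif of NF-kB dimers. Of the 10 promoter entries of these genes 7 held a match, in 5 of the 7 genes, against 3.90% of all 32851 promoter entries, and several matches overlap their own reverse match. The stretches with the match nearest to the most upstream start in the RefSeq table are shown because Nfkbia and Tnfaip3 are textbook NF-kB feedback genes, with the match in capitals, written 5′ to 3′ on the strand of the gene. They lie at chr10:19015411-19015440 (Tnfaip3), chr11:23771041-23771070 (Rel), chr17:45555584-45555613 (Nfkbie) and chr19:46304707-46304736 (Nfkb2), and for Nfkbia the whole window is given, chr12:55492648-55492897, with its match beginning 29 bases before the start. In GENCODE, which places a start farther upstream for both, the Nfkb2 stretch lies in an exon of the gene over all 30 of its bases, and the Tnfaip3 stretch lies inside the gene with 0 exonic bases.
Tnfaip3: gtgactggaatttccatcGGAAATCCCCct
Rel: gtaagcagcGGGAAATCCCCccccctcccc
Nfkbie: gcagcaaacaGGGGGATTCCggaggggcgg
Nfkb2: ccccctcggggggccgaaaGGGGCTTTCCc
Nfkbia: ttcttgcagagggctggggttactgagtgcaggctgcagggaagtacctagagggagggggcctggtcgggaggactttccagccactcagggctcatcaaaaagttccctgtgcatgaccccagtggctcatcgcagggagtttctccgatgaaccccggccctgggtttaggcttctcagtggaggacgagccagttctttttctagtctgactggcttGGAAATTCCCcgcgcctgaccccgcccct
The short heat shock element words GAANNTTC and TTCNNGAA were found in 12.8% of all promoter entries and in 0 of the 10 entries of these 7 genes, which says only that those letters are not in these windows. A match is a description of the letters and no evidence of binding.

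The rest of the pathway was described from lists of receptors, adaptors, kinases, further inhibitors and target genes. By the QL test no gene of them was called, with 0 of 18 tested receptors, 0 of 20 adaptors and ubiquitin ligases, 0 of 19 IKK subunits and kinases, 0 of 20 other inhibitors and 0 of 39 target genes. At an unadjusted p under 0.05 these lists, some of which share genes, held 1, 3, 0, 2 and 4 genes, against 9.68% of all genes. Their median log2 folds were -0.07 for receptors, 0.02 for adaptors, 0.04 for kinases, -0.01 for other inhibitors and -0.12 for target genes.

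Log2 folds of the 3 IKK subunit genes ranged from -0.05 to 0.11. Ikbkb, the catalytic subunit of the classical pathway, was found at 212, 205 and 207 CPM in mice S303/7A 5, 6 and 7, against 213, 215 and 215 CPM in WT 1, 2 and 3, with a log2 fold of -0.05 ± 0.06 (SE). Ikbkg, the regulatory subunit NEMO, had a log2 fold of 0.11 ± 0.08 and Chuk, the catalytic subunit of the alternative pathway, one of 0.07 ± 0.22 (SE). These 3 and Bcl3 below are named outside the rule for named genes, after their values were seen. By that rule, the kinases with the smallest p were Ripk1 (log2 fold 0.18 ± 0.11, SE), Irak1 (0.53 ± 0.38) and Prkcq (0.07 ± 0.05). Irak1, a kinase downstream of interleukin-1 and Toll-like receptors, was high in S303/7A 7 alone, at 60.9, 52.1 and 149.9 CPM in S303/7A, against 66.4, 62.8 and 53.3 CPM in WT.

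Among adaptors, Myd88, the adaptor of Toll-like and interleukin-1 family receptors, was measured at 149, 155 and 141 CPM in S303/7A 5, 6 and 7, against 129, 125 and 127 CPM in WT 1, 2 and 3 (log2 fold 0.22 ± 0.07, SE, edgeR adjusted p 0.345). It lay above every WT library in every S303/7A library, as did 7.64% of all genes. Traf3, which restrains the alternative pathway, was at 45.5, 37.9 and 47.7 CPM in S303/7A, against 69.4, 62.1 and 45.8 CPM in WT, with overlap (log2 fold -0.44 ± 0.17, SE).

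Of the receptors, Il1rl1, the interleukin-33 receptor gene, was at 5.44 ± 1.04 CPM in S303/7A and 8.40 ± 0.917 CPM in WT (SD, n = 3 each). Cd27 was at 169 ± 8.06 CPM in S303/7A and 140.4 ± 24.7 CPM in WT, and Il18r1, a chain of the interleukin-18 receptor, at 316 ± 44.6 CPM in S303/7A and 269 ± 36.2 CPM in WT. Their log2 folds were -0.63 ± 0.21 for Il1rl1, 0.27 ± 0.13 for Cd27 and 0.23 ± 0.13 for Il18r1 (SE). These 3 were picked by their small p. The groups overlapped for Il18r1 and not for the other 2, while 15 of the 18 tested receptors overlapped. Il1rl1 lay below every WT library in every S303/7A library, as did 8.37% of all genes, and Cd27 above, as did 7.64%.

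In the list of other inhibitors Tnip3, whose product binds A20, was sparse, at 0.583, 0.765 and 0.621 CPM in S303/7A 5, 6 and 7, against 2.11, 2.72 and 1.44 CPM in WT 1, 2 and 3. Its log2 fold was -1.67 ± 0.36 (SE, edgeR adjusted p 0.175). DESeq2 called it lower (adjusted p 0.0216), and over 12 alternatives the adjusted p ranged from 0.0216 to 0.525. N4bp1 was at 36.9, 28.2 and 40.8 CPM in S303/7A, against 44.8, 50.2 and 57.2 CPM in WT, and Rnf11, part of the A20 complex, at 8.84, 8.002 and 10.96 CPM in S303/7A, against 6.56, 6.01 and 7.85 CPM in WT. These 3, picked by their small p, were without overlap between the genotypes, while 16 of the 20 tested genes of the list overlapped. Over all genes, 8.37% lay below every WT library in every S303/7A library and 7.64% lay above. Bcl3, a nuclear member of the IkB family, differed widely between mice of 1 genotype, at 5.76, 7.54 and 66.9 CPM in S303/7A, against 27.9, 14.4 and 5.70 CPM in WT.

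The target gene with the smallest p was Il6, a cytokine gene. It was measured at 3.97, 3.48 and 5.01 CPM in S303/7A 5, 6 and 7, against 17.4, 24.1 and 9.16 CPM in WT 1, 2 and 3, without overlap. The log2 fold was -2.02 ± 0.36 (SE, edgeR adjusted p 0.104). It was called lower in DESeq2 (adjusted p 9.56e-07), without the low-count filter (0.00734) and without WT 3 (0.0447, edgeR), with a range from 9.56e-07 to 0.332 over 12 alternatives. Il6 also stands in the basophil list, as does the chemokine gene Ccl3, and the basophil sums given above hold both. Without them, by a choice made after the values were seen, the other 11 basophil markers summed to 339 to 484 CPM in S303/7A and 593.5 to 1117 CPM in WT. Ccl3 was at 114, 133 and 115 CPM in S303/7A, against 147, 252 and 145 CPM in WT (log2 fold -0.59 ± 0.22, SE), and Ier3 at 7.02, 1.86 and 4.88 CPM in S303/7A, against 11.9, 15.1 and 5.66 CPM in WT (log2 fold -1.25 ± 0.53, SE).

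**Figure D4:**
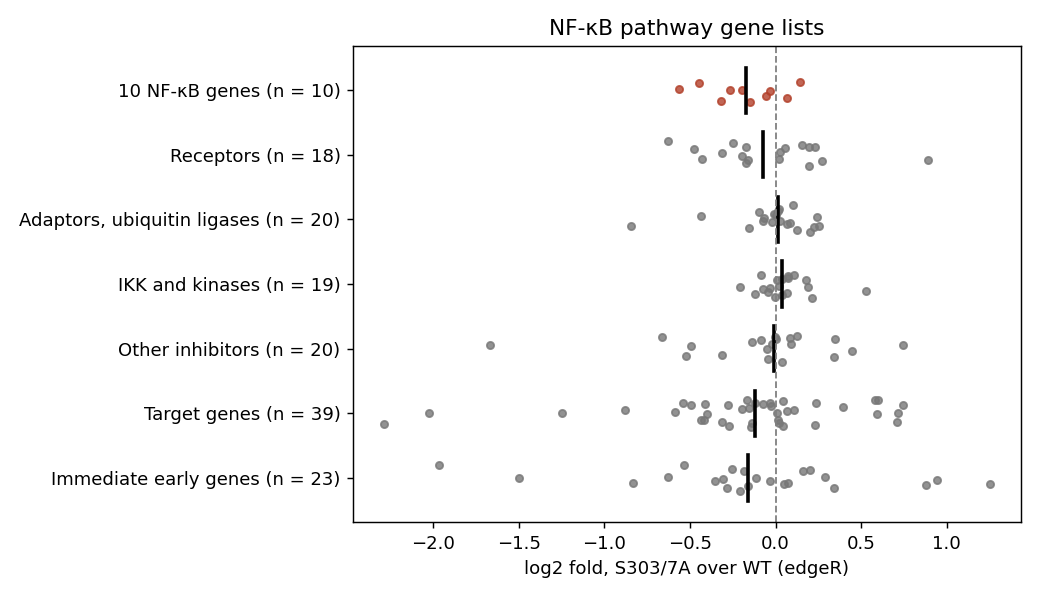
Log2 fold of S303/7A over WT for each tested gene of the 10 NF-kB genes and of 6 further lists, with a black bar at the median of each list; points are spread vertically only to show them. The medians lie between -0.17 for the 10 genes and 0.04 for the kinases.

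Immediate early genes, which respond within minutes to stimulation and to handling of cells, included 23 tested genes, of which edgeR called 0. Their median log2 fold was -0.16, with 14 folds below 0 and 9 above. The genotypes overlapped for 18 of the 23, and 4 had an unadjusted p under 0.05, against 9.68% of all genes. The 3 with the smallest p are given. Jun was found at 18.3, 34.2 and 17.7 CPM in mice S303/7A 5, 6 and 7, against 46.8, 189 and 38.1 CPM in WT 1, 2 and 3. Fos was at 5.32, 5.47 and 4.95 CPM in S303/7A, against 8.16, 29.4 and 6.95 CPM in WT, and Nr4a1 at 35.9, 42.3 and 41.5 CPM in S303/7A, against 46.9, 52.0 and 49.3 CPM in WT. These 3, picked by their small p, lay below every WT library in every S303/7A library, as did 8.37% of all genes. All 3 were highest in WT 2. Tnfaip3 was at similar levels in WT 1 and WT 2, 187 and 182 CPM. The part of handling in Tnfaip3 was not tested.

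The genes whose profile over the 6 libraries was most like that of Relb, among 7548 genes with a mean log2 CPM of at least 4, were Eid1, Limd2 and Lmtk2. Their root mean square difference from Relb was 0.125, 0.132 and 0.134 log2 units after each gene was centred. Limd2 was found at 525, 487 and 803 CPM in mice S303/7A 5, 6 and 7, against 846, 753 and 340 CPM in WT 1, 2 and 3. For Nfkbiz, the only other of the 10 genes that ranged over more than 1 log2 unit, the closest were Traf3, Tnip1 and Zfp287, at 0.0851, 0.110 and 0.110 log2 units. Tnip1, whose product binds A20, was at 72.4, 58.3 and 86.7 CPM in S303/7A, against 107, 104 and 58.7 CPM in WT.

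Over all genes 0.364% were called by edgeR, so a lack of calls near a gene is not a result about that gene. No called gene lay within 5 Mb of Tnfaip3, where 46 other genes were tested. The same held for the other 8 genes apart from Nfkb1, near which 1 of 51 tested genes was called (Gm5855, named after it was seen).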

How the data were processed

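RNA of sorted splenic NK cells from 6 mice was sequenced from SMART-seq HT libraries, per the labels' protocols. The authors deposited raw counts per gene symbol. Trimmomatic, STAR, featureCounts and DESeq2 with build mm10 (GRCm38) are named in the submitters' processing notes, and neither their versions nor the annotation or strandedness of the counting are given there. A deposited table of normalized values of the same genes was not used.

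The tests were run with edgeR 4.0.16 under R 4.3.3: filterByExpr (minimum count 10, minimum total 15), TMM factors and the quasi-likelihood test of S303/7A against WT, with Benjamini-Hochberg adjustment over the 16480 genes tested and a threshold of 0.05. The SE of a log2 fold is its size divided by the square root of the test's F, and 95% intervals use the same fit. Log2 folds and CPM come from all 6 libraries. Alternatives were RLE size factors, library totals, no low-count filter, DESeq2 1.42.0, limma-voom 3.58.1, counts thinned to equal totals and leaving out each library. Intervals from counts hold for counting error alone, because PCR copies of a molecule were not told apart.

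The members and the gene lists were chosen with earlier results of these data known. Named besides the 10 genes were Hsf1, Cd3e and Ncr1, the up to 3 genes of each list with the smallest p, and the 3 closest profiles of genes ranging over more than 1 log2 unit. A gene of the adaptor list that this rule takes is not reported here. Genes that are among the 10 were left out of the other lists. Exon lengths and positions are from GENCODE release 21 for mouse, on the authors' build.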

Additional observations from a re-analysis of the deposited data

How the results depend on the processing

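Over 12 alternatives and 10 genes, 115 of 120 values kept their direction and their side of the threshold. The call of Tnfaip3 was gained in DESeq2 (log2 fold -0.56) and without the low-count filter (-0.57), and the log2 fold changed sign without S303/7A 5 for Rel (0.079) and without WT 1 for Rel (0.069) and Nfkbie (0.057). With 1 library left out, log2 folds ranged from -0.14 to 0.079 for Rel and from -0.18 to 0.057 for Nfkbie. Over all genes, 22 were called higher and 38 lower. The counts were 154 higher and 283 lower in DESeq2, 54 and 117 without the low-count filter, and 22 lower in limma-voom. With 1 library left out they ranged from 1 to 38 higher and from 4 to 21 lower, both lowest without WT 2. Of the pathway lists, 1 target gene (Il6) was called in DESeq2, without the filter and without WT 3, so that the count ranged from 0 to 1 with 1 library left out, and 1 other inhibitor (Tnip3) was called in DESeq2. The cause of these changes was not tested. No paired analysis was possible because the replicate numbers 1 to 3 and 5 to 7 are not shared between the genotypes.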

Other observations

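S303/7A 7 stood apart from the other S303/7A mice for several genes of the lists, chosen after their values were seen. Dusp5, a phosphatase gene that limits ERK signalling, was found at 20.4, 16.4 and 95.3 CPM in mice S303/7A 5, 6 and 7, against 20.6, 19.5 and 15.3 CPM in WT 1, 2 and 3. Klf2, a transcription factor gene of lymphocyte quiescence, was at 35.7, 30.5 and 119.8 CPM in S303/7A, against 30.2, 31.7 and 39.3 CPM in WT. Ier5 was at 16.6, 15.7 and 81.8 CPM in S303/7A, against 50.3, 27.8 and 15.3 CPM in WT. The adjusted p in edgeR was 0.611 for Dusp5, 0.659 for Klf2 and 0.951 for Ier5, so these 3 were not called.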
